A study of Homo sapiens with 6 samples.

Results

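Ribosome biogenesis was followed in NK-92MI cells through 60 genes that encode RNA polymerase I, its factors and the proteins that process, modify and assemble ribosomal RNA. The genes were taken from the known steps of the pathway, with earlier results of these data known. All probe sets that the array annotation assigned to 1 of these genes and to no other were used, which gave 983 probe sets for 56 genes, out of 259224 such probe sets for 22260 genes on the array. The 56 genes comprised 11 of 12 listed for RNA polymerase I, 17 of 17 for the small subunit, 17 of 18 for the large subunit, 7 of 9 for RNA modification and 4 of 4 nucleolar proteins that serve several steps. TAF1D, NOP56, DKC1 and GNL3 were not measured alone, because all 30, 21, 24 and 18 of their probe sets also named small nucleolar RNAs or microRNAs.

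The study asked how mitochondria supplied from outside change natural killer cells. NK-92MI is an established human NK cell line that grows without added interleukin-2. In the mitochondrial transfer group, 5 µg of mitochondria were spun onto NK-92MI cells at 1500 × g for 15 min. These mitochondria were isolated from WRL-68, an established cell line that the study describes as hepatic. The control group consisted of NK-92MI cells in the same medium, which the labels call control with no further detail, and the sources used here do not say whether these cells were centrifuged or how long after transfer RNA was taken. Each group had 3 arrays of total RNA. As nothing states that the 3 samples of a group were separate cultures, p-values measure only the spread between these samples, which may be technical. With so few arrays the precision of every value is limited.

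Ribosome production begins in the nucleolus, where RNA polymerase I copies the ribosomal DNA into a long precursor. Small nucleolar ribonucleoproteins and enzymes modify the precursor, and assembly factors cut and fold it into the small and the large subunit together with ribosomal proteins. The pathway is known to scale with cell growth, and MYC is a textbook activator of many of its genes through the E-box.

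The promoters of the members are shown first, because a short motif recurred in them close to the start of transcription. The E-box was searched as CACGTG, which reads the same on both strands, in the RefSeq windows of 250 bases before to 50 bases after each annotated start (GRCh38.p14). Of 53 listed members with a window, 19 (35.85%) held it, against 26 of 94 other genes of ribosome biogenesis (27.66%), 8.77% of all 27305 genes and 10.9% of the protein-coding genes with a window. Counted by window, it lay in 31.75% of those of members and in 7.26% of all 35116 windows. Among the members, 19 of 21 sites (90.5%) lay within 50 bases of the start, compared with 1042 of 2821 sites (36.9%) over all windows. The 7 stretches below were chosen to show this position in each of the 3 steps that held several such genes, with members whose arrays did and did not separate between the groups. Each runs 5′ to 3′ on the strand of its gene, and the E-box is in capitals.
MRTO4, large subunit, chr1:19251755-19251834, plus strand: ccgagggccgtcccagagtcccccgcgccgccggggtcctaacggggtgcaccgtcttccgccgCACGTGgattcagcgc
PES1, large subunit, chr22:30591881-30591960, minus strand: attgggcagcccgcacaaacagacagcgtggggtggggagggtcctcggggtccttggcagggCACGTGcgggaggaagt
NOC3L, large subunit, chr10:94362910-94362989, minus strand: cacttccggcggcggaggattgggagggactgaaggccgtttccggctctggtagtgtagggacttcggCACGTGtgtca
UTP20, small subunit, chr12:101280055-101280134, plus strand: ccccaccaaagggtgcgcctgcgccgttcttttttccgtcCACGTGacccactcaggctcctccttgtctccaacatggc
FBL, modification, chr19:39846350-39846429, minus strand: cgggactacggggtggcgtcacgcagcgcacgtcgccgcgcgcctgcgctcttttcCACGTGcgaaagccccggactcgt
NOP10, modification, chr15:34343107-34343186, minus strand: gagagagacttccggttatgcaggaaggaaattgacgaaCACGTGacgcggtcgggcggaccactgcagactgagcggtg
NAT10, modification, chr11:34105579-34105658, plus strand: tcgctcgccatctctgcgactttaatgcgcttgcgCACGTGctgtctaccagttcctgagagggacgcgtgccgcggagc

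The E-box was found in 8 of 16 small subunit genes, 6 of 15 large subunit genes, 4 of 7 modification genes and 1 of 4 shared nucleolar genes with a window, and in 0 of 11 RNA polymerase I genes. A second motif, the ETS core CCGGAAG searched on both strands, was in the windows of 26 of 53 members (49.06%) and of 12.16% of all genes, and 8 of the 11 RNA polymerase I genes held it. These matches describe letters in a window and not binding. BOP1, NOLC1, NOP58, POLR1E, RRP12, RRP1B and RRS1 had no window.

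**Figure D1:**
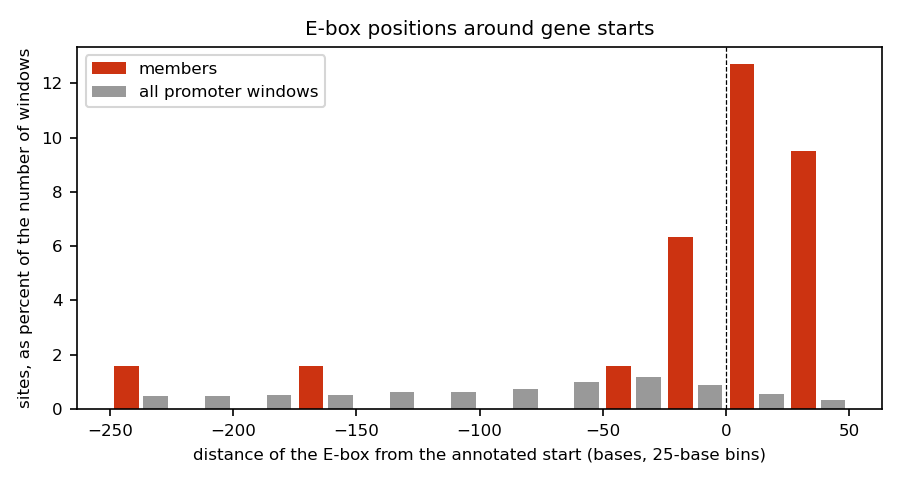
Position of the E-box relative to the annotated start (x axis, bases, in bins of 25) as the number of sites in percent of the number of promoter windows (y axis), for members (red) and for all windows (grey). Member sites gather around the start, with 12.7% for members and 0.55% for all windows in the first 25 bases after it.

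Each value below is a log2 intensity from the robust multi-array average (RMA), and each gene is given by its brightest probe set over the 6 arrays. A difference is mitochondrial transfer minus control on the log2 scale, with its standard error (SE) and 95% interval from limma fitted over all 22260 genes. Adjusted p is the Benjamini-Hochberg value over these genes, with a threshold of 0.05. Against a background of 6.59, which is the 95th percentile of 367 olfactory receptor genes, 9 of 9 NK cell markers lay above it, but so did 8 of 8 hepatocyte, 6 of 7 epithelial, 3 of 3 T cell and 1 of 2 B cell markers, so that this level does not tell identities apart. The summed NK cell markers were 14.34 to 14.50 on transfer arrays and 14.46 to 14.60 on control arrays, with negative differences in 7 of 9 and −0.54 in GZMB, a granule protease. The T cell markers summed to 9.36, 8.68 and 9.10 on transfer arrays and 8.64, 8.57 and 8.66 on control arrays, all higher after transfer. The other lists overlapped, with 10.88 to 11.06 on transfer and 10.80 to 11.12 on control arrays for hepatocyte markers, 10.92 to 11.11 and 10.90 to 11.22 for epithelial markers, and 8.42 to 8.66 and 8.23 to 8.60 for B cell markers. No marker of these lists passed the threshold, and their part in the values below was not tested. Over all genes, r was 0.969 to 0.972 between transfer arrays, 0.981 to 0.983 between control arrays and 0.961 to 0.964 between the groups.

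Most ribosome biogenesis genes had lower values after mitochondrial transfer, and none of them passed the test adjusted over all genes. Of 56 measured members, 45 had a negative and 11 a positive difference, with a median of −0.23, compared with 0.005 over all genes and −0.06 over the 3986 genes brighter than the median member, of which 59.9% were negative. Among the steps, the most negative median difference was that of the large subunit, at −0.41. By limma, 0 members were lower and 0 higher at an adjusted p under 0.05, where 0.234% of all genes were lower and 1.74% higher. At an unadjusted p under 0.05, 13 members were lower and 0 higher, against 7.31% and 10.6% of all genes. In bulk RNA, fewer cells expressing a gene and less RNA per cell cannot be told apart. RMA applies quantile normalization across arrays, so that a change in total RNA per cell is not visible. The deposited values still differed slightly in level between arrays. Centring the arrays on their medians moved the median of all genes to 0.045 and that of the members to −0.19.

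The transfer arrays lay wholly below the control arrays for 26 members (46.4%) and wholly above them for 1, WDR75, whereas this held for 11.8% and 13.9% of all genes and for 24.6% and 16.1% of the genes brighter than the median member. With a further quantile or cyclic loess normalization of the deposited values, the 26 became 17 and 12, where 8.46% and 8.01% of all genes were separated in this direction. The 13 at an unadjusted p under 0.05 became 8 and 7, with 5.13% and 4.82% of all genes, and under cyclic loess the median moved to −0.14. Relative to each gene's control mean, the members' median was −0.27, −0.14 and −0.25 on the 3 transfer arrays and −0.03, −0.01 and 0.05 on the 3 control arrays. All 3 transfer arrays thus contributed, the transfer 2 array least. The lowest of the 6 values fell on transfer arrays for 19, 9 and 17 members and on control arrays for 3, 8 and 0, and the highest fell on the control 3 array for 24. Without control 3, 6 of the 13 remained lower at an unadjusted p under 0.05, with 4.62% of all genes.

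The precision leaves small differences undecided. The median SE of a member was 0.15 and the median half-width of its 95% interval was 0.36, while the smallest difference of any gene that passed the threshold was 0.69. The interval lay below 0 for 13 members and above 0 for 0, and for 37 it reached −0.5 or lower. All 56 members were above background, as were 16006 of all 22260 genes. The members had mean levels of 7.90 to 13.25 and a median of 9.96.

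**Figure D2:**
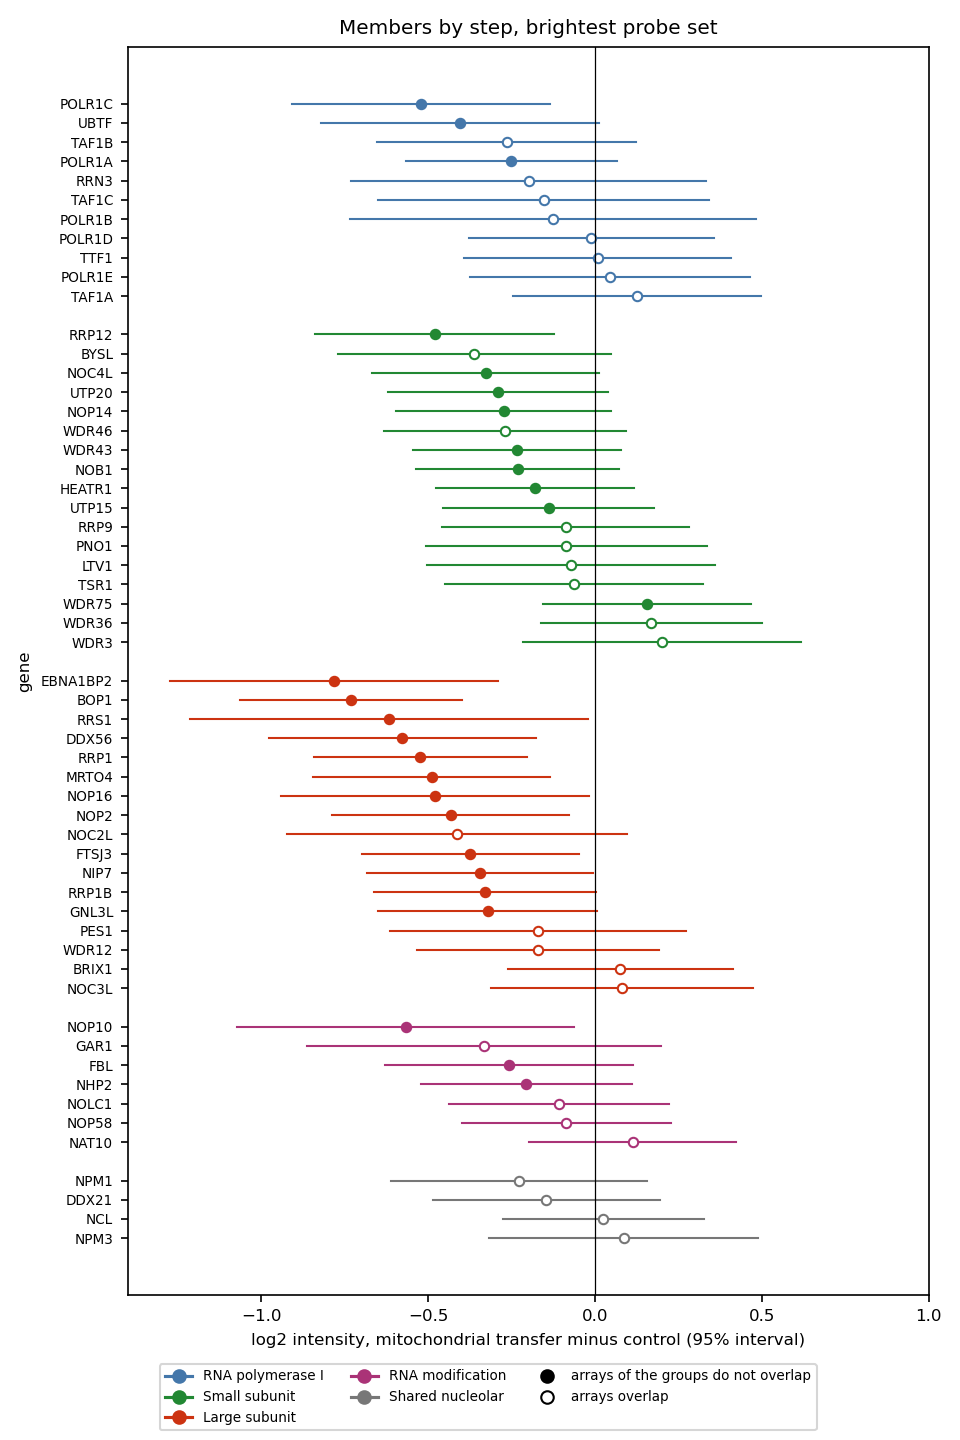
Difference between mitochondrial transfer and control (x axis, log2 intensity, points with 95% limma intervals) for the 56 measured members (y axis), ordered by step, with filled points where the arrays of the groups did not overlap. Most points lie left of 0, and the large subunit genes reach −0.78.

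Among the RNA polymerase I genes, 8 of 11 had negative differences, with a median of −0.15. In 3 (27.3%) the groups were separate in the lower direction, against 11.8% of all genes and 24.6% of those brighter than the median member. POLR1C, a subunit that RNA polymerases I and III share, had 9.13, 9.01 and 9.45 on transfer arrays and 9.84, 9.65 and 9.66 on control arrays. Its 3 transfer values were the lowest, and the difference of −0.52 (SE 0.16) had an adjusted p of 0.175 by limma. UBTF, the architectural factor that keeps ribosomal genes active, had 10.42, 10.77 and 10.28 on transfer arrays and 10.77, 11.07 and 10.84 on control arrays. The groups touched at 10.77 without crossing, and the difference was −0.40 with an adjusted p of 0.291. POLR1A, the largest catalytic subunit and the brightest gene of this step, had 11.36, 11.40 and 11.28 on transfer arrays and 11.47, 11.60 and 11.71 on control arrays. Its groups were separate, at a difference of −0.25 and an adjusted p of 0.374.

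POLR1B, the other large catalytic subunit, had 9.63, 9.88 and 8.91 on transfer arrays and 9.63, 9.72 and 9.45 on control arrays. These groups overlapped, and the difference of −0.13 became 0.16 without the transfer 3 array, which held the low value. RRN3, the initiation factor that links polymerase I to growth signals, had 9.61, 10.28 and 10.38 on transfer arrays and 10.39, 10.33 and 10.15 on control arrays. Only the transfer 1 value lay outside the control range, and without it the difference of −0.20 became 0.04. RRN3 has near-identical pseudogene copies in the genome, so its signal is uncertain. The other 6 genes of this step (TAF1A, TAF1B and TAF1C of the promoter selectivity factor, the subunits POLR1D and POLR1E, and the terminator protein TTF1) had overlapping groups and differences from −0.27 to 0.13. The step's median was −0.28 without transfer 2 and −0.08 and −0.06 after quantile and cyclic loess normalization.

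Genes of the small subunit had a negative sign in 14 of 17, with a median of −0.18. Separate groups in the lower direction were present in 8 (47.1%), against 11.8% of all genes and 24.6% of those brighter than the median member. The median was −0.11 and −0.09 after quantile and cyclic loess normalization and −0.35 with the median probe set of each gene. RRP12, which acts in the export of both subunits, had 10.19, 10.08 and 9.81 on transfer arrays and 10.42, 10.54 and 10.55 on control arrays. The groups were apart, with a difference of −0.48 (SE 0.15) and an adjusted p of 0.177. NOC4L, a nucleolar assembly factor that works with NOP14, had 9.52, 9.34 and 9.21 on transfer arrays and 9.70, 9.77 and 9.58 on control arrays. Its difference was −0.33 at an adjusted p of 0.293. NOP14 itself had 11.96, 11.74 and 12.00 on transfer arrays and 12.12, 12.16 and 12.23 on control arrays. It was the brightest gene of the step, and its difference was −0.27 at an adjusted p of 0.344. For both partners every transfer value lay below every control value.

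BYSL, an assembly factor of the small subunit precursor, had 9.29, 9.65 and 9.17 on transfer arrays and 9.57, 9.77 and 9.85 on control arrays. The transfer 2 value reached into the control range, and the difference was −0.36 with an adjusted p of 0.327. NOB1, the endonuclease that makes the mature end of the small subunit RNA, had 10.03, 10.17 and 10.10 on transfer arrays and 10.24, 10.36 and 10.39 on control arrays. HEATR1, an early processome protein also needed for polymerase I transcription, had 11.00, 10.97 and 10.88 on transfer arrays and 11.19, 11.10 and 11.10 on control arrays. Both had separate groups at small differences of −0.23 and −0.18, with adjusted p of 0.394 and 0.498.

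RRP9, a protein of the small nucleolar ribonucleoprotein that guides the first cleavages, had 8.58, 8.75 and 8.98 on transfer arrays and 8.95, 8.90 and 8.73 on control arrays. The groups overlapped at a difference of −0.09, which was 0.01 without transfer 1, whereas the median of its 14 other probe sets was −0.62. WDR3, a processome subunit, had the highest positive difference of the members, with 10.36, 9.97 and 9.98 on transfer arrays and 9.90, 9.71 and 10.10 on control arrays. These overlapped, and the difference of 0.20 (adjusted p 0.593) was 0.07 without transfer 1 and −0.33 with the median of its probe sets. The other processome and assembly genes of the step were UTP15, UTP20, WDR36, WDR43, WDR46, WDR75, PNO1, LTV1 and TSR1. Their differences ran from −0.29 in UTP20 to 0.17 in WDR36.

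The large subunit genes had the most negative median difference of all steps. Of 17, 15 had negative differences. In 12 (70.6%) the groups were separate in the lower direction, against 11.8% of all genes and 24.6% of those brighter than the median member. At an unadjusted p under 0.05 by limma, 10 (58.8%) were lower, against 7.31% and 10.5% of these genes. Of 39 measured large subunit genes outside the member list, 13 (33.3%) were separate in the lower direction and 8 (20.5%) lower at this p. In the higher direction these counts were 4 and 3. BOP1, a subunit of the complex with PES1 and WDR12 that processes the large subunit precursor, had 9.56, 9.23 and 9.36 on transfer arrays and 10.10, 10.10 and 10.14 on control arrays. The control values were nearly equal and every transfer value lay below them, which gave a difference of −0.73 (SE 0.14, 95% interval −1.06 to −0.40) and an adjusted p of 0.0563 by limma, the smallest of the members. When only the 16006 genes above background were tested, BOP1 passed the threshold with an adjusted p of 0.0273, at a background of 0.868% of genes lower. With the mean or the median of its 21 probe sets, of which 15 were negative, its difference was −0.28 (adjusted p 0.229) or −0.17 (adjusted p 0.687), and with a replicate block the adjusted p was 0.155. PES1, its partner, had 9.36, 9.83 and 9.91 on transfer arrays and 9.72, 10.02 and 9.88 on control arrays. Those groups overlapped, at −0.17 and an adjusted p of 0.675, and without transfer 1 the difference was −0.0012. WDR12 also had −0.17 with overlapping groups. Whether BOP1 differed from its partners in this respect was not tested.

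EBNA1BP2, a nucleolar factor of early large subunit assembly, had 9.57, 8.90 and 9.09 on transfer arrays and 10.06, 10.08 and 9.76 on control arrays. Its difference of −0.78 (SE 0.21) was the most negative of the members, with separate groups and an adjusted p of 0.128. RRP1, a nucleolar protein whose yeast counterpart acts in large subunit precursor processing, had 9.65, 9.77 and 9.72 on transfer arrays and 10.10, 10.35 and 10.26 on control arrays. The spread within each group was small against the difference of −0.52 (SE 0.13), which had an adjusted p of 0.122 and was −0.29 (adjusted p 0.418) with the median of its probe sets. Both genes and BOP1 passed the threshold when limma was run with its trend and robust options, at adjusted p of 0.0423, 0.0346 and 0.0108, where 1.46% of all genes were lower. GNL3L, a nucleolar GTPase and the brightest gene of the step, had 11.68, 11.95 and 11.70 on transfer arrays and 12.13, 12.03 and 12.13 on control arrays. Its groups were separate at −0.32, with an adjusted p of 0.287.

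The remaining large subunit genes divided by size. DDX56, a DEAD-box helicase, RRS1, MRTO4, NOP16 and the methyltransferase NOP2 had differences from −0.62 to −0.43, and FTSJ3, NIP7 and RRP1B from −0.37 to −0.33, all with separate groups. NOC2L had −0.41 with overlapping groups. BRIX1 and NOC3L were the genes with positive differences, at 0.08 each, and their groups overlapped. On single arrays, the median shift of the step was −0.42, −0.33 and −0.40 after transfer and −0.01, −0.01 and 0.10 in controls.

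**Figure D3:**
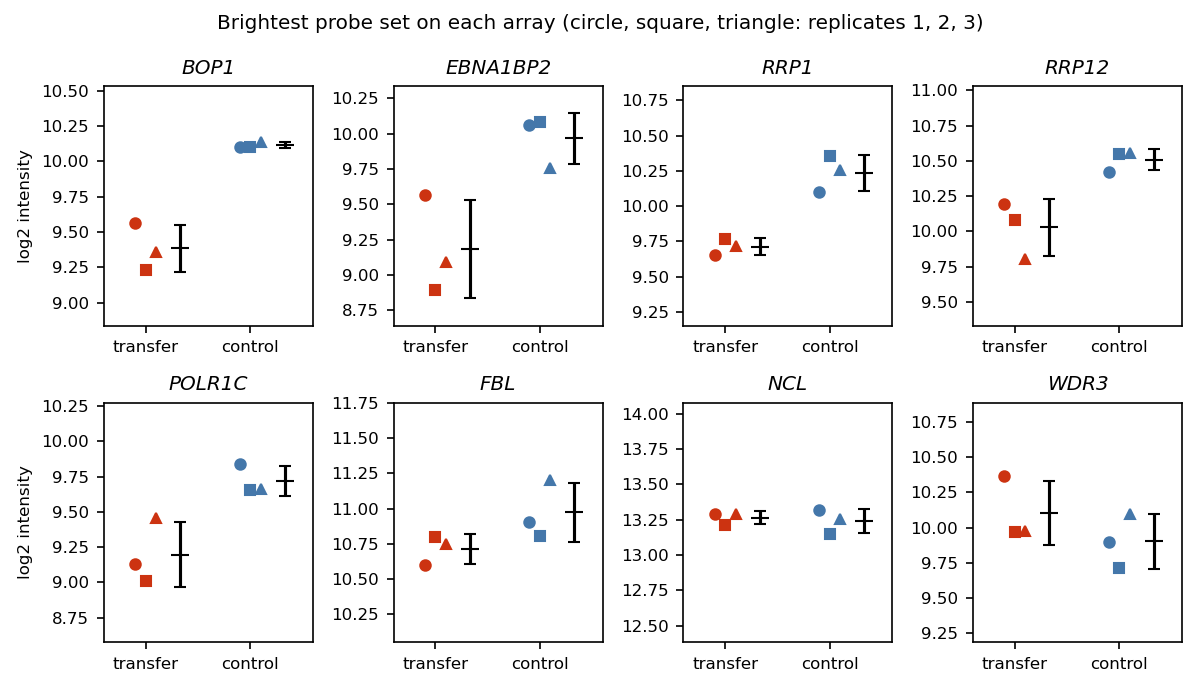
Log2 intensity (y axis) on each of the 3 mitochondrial transfer and 3 control arrays for named members, with points for arrays and bars for the mean ± SD (n = 3) of a group. In BOP1, EBNA1BP2, RRP1, RRP12, POLR1C and FBL the transfer arrays all lie below the control arrays, while in NCL and WDR3 they overlap.

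Among the 7 modification genes, 6 had negative differences, with a median of −0.21. NOP10, a core protein of the particles that convert uridine into pseudouridine, had 8.77, 9.26 and 9.14 on transfer arrays and 9.29, 9.69 and 9.91 on control arrays. The groups were separated by little at the control 1 array, and the difference of −0.57 (SE 0.21) had an adjusted p of 0.234. NHP2, of the same particles, had 10.76, 10.97 and 10.95 on transfer arrays and 11.06, 11.06 and 11.17 on control arrays. Its groups were separate too, at −0.21 and an adjusted p of 0.465, and GAR1, another of their core proteins, had −0.33 with overlapping groups.

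FBL, the methyltransferase of the particles that add methyl groups to ribose, had 10.60, 10.80 and 10.75 on transfer arrays and 10.91, 10.81 and 11.21 on control arrays. The groups nearly met at control 2, and the difference was −0.26 with an adjusted p of 0.439, and −0.14 without control 3. NOP58, a core protein of those particles and the brightest gene of the step, had 11.72, 11.87 and 11.97 on transfer arrays and 11.90, 11.96 and 11.95 on control arrays. They overlapped at −0.09, which became 0.0001 after cyclic loess, with an adjusted p of 0.773. NOLC1, a chaperone of both kinds of particle, had −0.11, and NAT10, which acetylates cytidine in the small subunit RNA, had 0.11, both with overlapping groups.

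The 4 nucleolar proteins that serve several steps did not separate between the groups, and their median of −0.06 turned to 0.04 and 0.025 with quantile and cyclic loess normalization. NPM1, nucleophosmin, had 9.14, 9.35 and 9.29 on transfer arrays and 9.74, 9.40 and 9.32 on control arrays, a difference of −0.23 with an adjusted p of 0.507. It was −0.098 without control 1 and −0.052 with the median of probe sets. Only 5 probe sets named NPM1 alone, and the gene has many processed pseudogenes, so its level is uncertain. DDX21, an RNA helicase of the nucleolus, had 11.00, 10.99 and 11.16 on transfer arrays and 11.04, 11.34 and 11.20 on control arrays, a difference of −0.15 with an adjusted p of 0.637, and of −0.071 without control 2. NPM3, a relative of nucleophosmin, was the dimmest member, with 8.09, 7.98 and 7.78 on transfer arrays and 7.60, 7.95 and 8.03 on control arrays. Its 0.09 was −0.04 without control 1, and the groups overlapped.

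NCL, nucleolin, was the brightest member and showed how much rests on the choice of probe set. Its brightest probe set had 13.29, 13.21 and 13.29 on transfer arrays and 13.32, 13.15 and 13.26 on control arrays, an overlap with a difference of 0.03 and an adjusted p of 0.936. Yet 18 of its 20 probe sets were negative, and the median of the other 19 was −0.28. A further NCL probe set of lower intensity had 9.98, 10.06 and 9.67 on transfer arrays and 7.08, 7.46 and 7.71 on control arrays. Every transfer value lay above every control value, and this difference of 2.48 (SE 0.25) had an adjusted p of 0.0594 over all probe sets, the smallest of the 983. It passed the threshold, at an adjusted p of 0.00571, when probe sets below background were left out, where 0.473% of the rest were higher.

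Probe sets of a gene share its transcripts and are not replicates, but they show whether the brightest was typical. Of the 983 probe sets, 737 (75.0%) were negative, compared with 56.2% of all probe sets, and their median was −0.26, compared with −0.07. At an adjusted p under 0.05, 0 were lower or higher, where 0.0694% of all probe sets passed in either direction. At an unadjusted p under 0.05, 122 (12.4%) were lower and 16 (1.63%) higher, against 5.46% and 4.58% of all probe sets. The lower count was 75, 54 and 71 without control 1, 2 and 3, with 3.82%, 3.39% and 3.55% of all probe sets, and the higher count was 9 without transfer 3, with 4.46%. Differences below −0.5 were present in 25.7% of member probe sets and 18.8% of all, and differences above 0.5 in 4.27% and 14.4%. Among probe sets above background, 77.3% of those of members and 60.8% of all were negative. There, 23.2% and 13.7% lay below −0.5, and 2.35% and 7.19% above 0.5. With trend and robust options 7 member probe sets were lower and 1 higher at an adjusted p under 0.05, with 0.130% and 0.439% of all probe sets. Above 1 lay 15 of the 983 member probe sets and below −1 lay 45, against 12477 and 14161 of all 259224. Members were thus not more often below −1 than all probe sets, and less often above 1. The 3 highest member probe sets, in POLR1B (2.82), BRIX1 (2.78) and WDR3 (2.69), were dim. Their means were 5.75, 4.90 and 5.79 on transfer arrays and 2.93, 2.12 and 3.11 on control arrays, all below the probe set background of 6.15.

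In 52 of 56 members the probe sets other than the brightest had a negative median. The same share over all genes was not counted, and 56.2% of all single probe sets were negative, or 60.8% of those above background. In RRS1, NIP7 and NOC2L all 3, 7 and 5 probe sets were negative, as were 36 of 41 in POLR1A, 20 of 21 in NOP14, 18 of 19 in NOP2 and 14 of 15 in RRP9. The majority was positive in WDR36 (19 of 23), NOC3L (15 of 21), WDR3 (13 of 24) and RRN3 (4 of 6). The brightest probe set and the median of the others had opposite signs in 9 members, TAF1A, POLR1E, TTF1, RRN3, WDR75, BRIX1, NAT10, NPM3 and NCL. WDR75, the member whose transfer arrays all lay above the control arrays, was among them, with 0.16 by the brightest and −0.18 by the others. By step, 149 of 209 probe sets were negative for RNA polymerase I, 275 of 368 for the small subunit, 200 of 260 for the large subunit, 72 of 97 for modification and 41 of 49 for the shared nucleolar proteins. When a gene was instead given the mean of its probe sets, 29 members were lower at an unadjusted p under 0.05, with 12.3% of all genes.

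**Figure D4:**
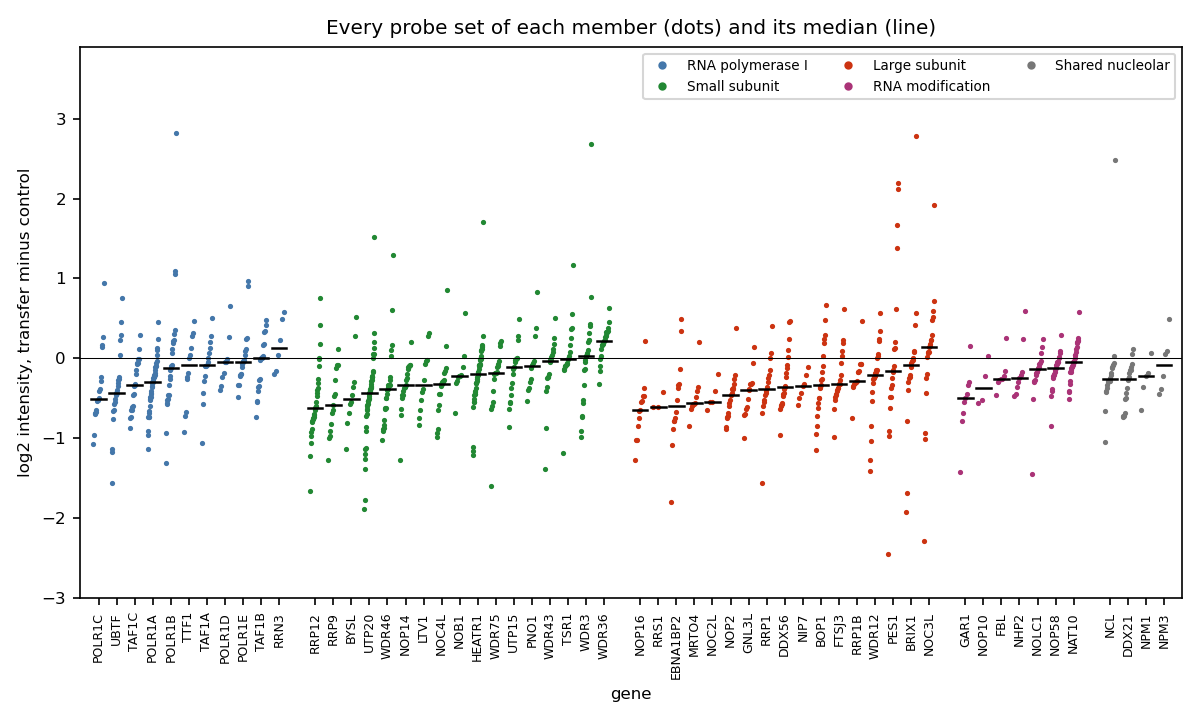
Differences of all probe sets of each member (points; y axis, log2 intensity, mitochondrial transfer minus control) with the median of a gene as a line, by gene and step (x axis). Most points, 737 of 983, lie below 0, and single points such as the NCL probe set at 2.48 lie far above it.

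The other genes of ribosome biogenesis, 110 genes in lists written from general knowledge with earlier results of these data known, were also mostly negative. Of 107 measured, 84 had negative differences and their median was −0.16, with −0.16 for RNA polymerase I, −0.12 for the small subunit, −0.17 for the large subunit and −0.16 for modification. By limma 0 were lower and 2 higher at an adjusted p under 0.05, against 0.234% and 1.74% of all genes. At an unadjusted p under 0.05, 18 (16.8%) were lower and 6 higher, against 7.31% and 10.6% of all genes. Of the genes brighter than the median member, 10.5% were lower at this p. The groups were separate in the lower direction for 30 of the 107 and in the higher direction for 7. This held for 11.8% and 13.9% of all genes and for 24.6% and 16.1% of those brighter than the median member. The share separate in the lower direction was thus only a little above that of the brighter genes. MYBBP1A, a nucleolar regulator of polymerase I transcription, had 11.65, 11.78 and 11.81 on transfer arrays and 9.55, 9.85 and 9.50 on control arrays. ABT1, a small subunit factor, had 9.61, 9.72 and 9.49 on transfer arrays and 7.67, 7.64 and 7.65 on control arrays. These 2 rose by the brightest probe set, by 2.11 and 1.96 with adjusted p of 0.000859 and 0.000593, but 19 of 22 and 4 of 5 of their probe sets were negative, and the medians of the others were −0.54 and −0.40.

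MYC had 9.93, 9.97 and 9.94 on transfer arrays and 9.72, 9.94 and 9.77 on control arrays. The groups overlapped, and the difference of 0.14 had an adjusted p of 0.62. Members with an E-box in the promoter window numbered 18 among those measured, of which 16 were negative with a median of −0.26 and 8 had separate groups in the lower direction. Of the 31 measured members whose window held no E-box, 23 were negative with a median of −0.20 and 14 had separate groups in that direction. Over all genes 11.8% were separate in that direction, and 24.6% of those brighter than the median member. The stretches printed above belong to genes at −0.57 (NOP10), −0.49 (MRTO4), −0.29 (UTP20), −0.26 (FBL), −0.17 (PES1), 0.08 (NOC3L) and 0.11 (NAT10). As these genes were chosen partly by their values, their signs say nothing of the motif, and 2 of the 18 measured members with an E-box were positive.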

How the data were processed

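Total RNA of 6 NK-92MI samples was hybridised to Affymetrix whole-transcript arrays. The deposited files hold log2 intensities, which came from RMA in Affymetrix Power Tools per the submitters' processing notes (versions not given in the sources used here). RMA corrects background, applies quantile normalization and gives 1 value per probe set. These deposited log2 values were used without further scaling. Of 352859 probe sets, 13116 named several genes and 80519 none, and these were left out. Symbols were updated through RefSeq (20529 current, 1726 updated, 65 unmatched). Groups came from the sample titles. Genes (brightest probe set) and probe sets were fitted in limma 3.58.1 (lmFit, eBayes) under R 4.3.3, two-sided, with Benjamini-Hochberg adjustment. The procedure was tested on simulated data. Promoter motifs were searched in Python 3.11.15.

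The members and lists were chosen with earlier results of these data known, and the lists got counts and medians without a test. Values were named for the 3 members of each step with the smallest p, the brightest of each step, textbook genes, the 3 members departing most from their other probe sets, the largest positive difference and MYC. Other members and genes were named after their values were seen.

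Alternatives were quantile, cyclic loess and median-centred values, the mean or median of probe sets, a background filter, trend and robust options, a replicate block, the methods' t-test and each array left out.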

Additional observations from a re-analysis of the deposited data

How the results depend on the processing

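All 56 members lay above background, as did 16006 of all 22260 genes, and each group had 3 arrays. The members' counts at an adjusted p under 0.05 were 0 in each setting except the background filter (1 lower) and trend and robust (3 lower). Quantile normalization gave 8 members lower at an unadjusted p under 0.05, 17 with separate groups and medians of −0.16 over the members, −0.083 for RNA polymerase I, −0.11 for the small subunit, −0.34 for the large subunit and 0.036 for the shared nucleolar proteins. Cyclic loess gave 7, 12, −0.14, −0.064, −0.092, −0.32 and 0.025, and turned NOP58 to 0.0001 and RRP9 to 0.0018. Median centring gave −0.0195 for the shared proteins. The mean of probe sets gave 29 lower and medians of −0.26 for the small subunit and −0.21 for the shared proteins, and turned NPM3 to −0.072, NCL to −0.15, RRN3 to 0.16 and PES1 to 0.056. The median of probe sets gave −0.35 and −0.23, and turned NPM3 to −0.15, NOP58 to 0.024, NCL to −0.42, RRN3 to 0.25, WDR3 to −0.33 and MYC to −0.085. These settings moved the median of all genes by at most 0.07. Trend and robust gave 22 members lower at an unadjusted p under 0.05 (9.21% of all genes), and over probe sets 7 lower and 1 higher at an adjusted p under 0.05 and 246 and 25 unadjusted (7.83% and 4.67% of all probe sets). The background filter gave 1 NCL probe set higher and 10 at an unadjusted p under 0.05 (5.58%). Leaving out 1 array at a time gave 6 to 13 members lower at an unadjusted p under 0.05, with 4.55% to 7.12% of all genes. Medians ran from −0.28 to −0.11 for RNA polymerase I and from −0.094 to −0.031 for the shared proteins. Unadjusted, 54 to 117 member probe sets were lower and 9 to 15 higher, with 3.39% to 6.74% and 3.74% to 4.79% of all probe sets. Across these fits NPM3 ranged from −0.043 to 0.17, NCL from −0.021 to 0.063 and POLR1B from −0.33 to 0.16. RRN3 ranged from −0.34 to 0.041 and RRP9 from −0.19 to 0.0087. Same-numbered arrays deviated together at r of 0.07, 0.01 and 0.01, and not every array correlated best with its own number. Such small values cannot settle whether same-numbered samples shared a culture or handling, which the labels do not state. With a replicate block, 0 members passed and 13 were lower at an unadjusted p under 0.05, with 6.97% of all genes. Unadjusted, 10 member probe sets were higher, with 4.34% of all probe sets. The methods' t-test gave 0 members after Benjamini-Hochberg adjustment and 19 lower unadjusted, with 7.53% of all genes. Of 27 named genes, 15 moved by more than 1.5 times under cyclic loess, 9 under quantile normalization, 3 under centring, 11 with the mean and 19 with the median of probe sets, and 11 when some array was left out. The causes of these changes were not tested. Of 405 values of 27 named genes, 384 kept their direction and side of the threshold, 17 changed sign and 4 newly passed.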
